A study of Mus musculus with 3 samples.

Results

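The genes described here are 35 genes that act in G2 and mitosis, chosen by name from the 20368 genes of an expression table of single cells from mouse prefrontal cortex; all 35 had a row. For each cell the number of these genes with a value above 0 was counted, and cells with 5 or more were set apart. The tissue came from mice of both sexes on postnatal day 6, which were killed on the day of 1 exposure to the inhaled general anaesthetic sevoflurane, at a concentration of about 3%. The labels give 3 replicate libraries of that single exposed group and no unexposed group, and name no genotype. Whether the libraries stand for different animals is not given there. The p-values thus measure only how far differences between kinds of cells varied over these libraries, a spread that may be technical. Every comparison is therefore between kinds of cells of exposed mice, and effects of the anaesthetic itself cannot be read from them.

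During G2 and mitosis cyclin-dependent kinase 1, bound to A-type and B-type cyclins, drives the cell into division, and Aurora and Polo-like kinases build the spindle and check how chromosomes attach to it. The anaphase-promoting complex then marks cyclins and other proteins for destruction, chromosomes separate, and a ring of actin and its regulators pinches the cell apart. Most of the genes involved are transcribed mainly in G2 and M, through promoter elements bound by the DREAM and B-Myb complexes together with the trimeric factor NF-Y. In the cortex of newborn rodents glial progenitors, microglia, vessel cells and late-born neuroblasts still divide, whereas oligodendrocytes and Cajal-Retzius cells do not.

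The deposited table held 14192 cells, with 24612481 to 29581504 corrected counts and a median of 2502 to 2603 detected genes per cell in the 3 libraries. Values had already been corrected for depth by a method not given in the sources used here, so the depth before correction is unknown. Of the cell barcodes, 90 occurred in 2 libraries and 0 in all 3. After 287 suspected doublets were removed, 13905 cells were left, of which 18.6% carried 5 or more of the genes, against 25.8% of the removed cells. Cell classes were defined by a pair of other genes, both above 0, and cells that met 2 definitions were kept apart. The pairs were Pdgfra with Lhfpl3 for oligodendrocyte precursors, Aqp4 with Gja1 for astrocytes, P2ry12 with Csf1r for microglia, Kcnj8 with Vtn for pericytes, Cldn5 with Flt1 for endothelium, and Mag with Mobp for oligodendrocytes. Dlx1 with Sp9 marked neuroblasts, which were split by Insm1, a transcription factor of newly formed neuronal precursors. In astrocytes, oligodendrocytes, microglia, endothelium and pericytes at least 98.95% of cells had 3 or more further markers of their class, and in precursors 99.6% did. Both kinds of neuroblasts also met this check, in 97.89% of Insm1-positive and 99.34% of Insm1-negative cells.

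Promoter sequences show what the genes share beyond the list. In the RefSeq promoter table for GRCm38.p6, which spans 250 bases before to 50 bases after each start, 29 of the 35 genes had an entry, with 31 promoters; Ccna2, Pbk, Cdc25c, Pimreg, Tpx2 and Aurkb had none. The 5 printed here stand for the roles described below: a cyclin, its kinase, an activator of the anaphase-promoting complex, a spindle motor and a cytokinesis regulator. Each is written 5′ to 3′ on the gene's strand. Capitals mark CCAAT, the core letters bound by NF-Y, and TTTGAA or TTCGAA, the core letters of the cell cycle genes homology region, where each was read on either strand, so that ATTGG and TTCAAA are capitals too.
Ccnb2 (chr9:70421505-70421804, minus strand): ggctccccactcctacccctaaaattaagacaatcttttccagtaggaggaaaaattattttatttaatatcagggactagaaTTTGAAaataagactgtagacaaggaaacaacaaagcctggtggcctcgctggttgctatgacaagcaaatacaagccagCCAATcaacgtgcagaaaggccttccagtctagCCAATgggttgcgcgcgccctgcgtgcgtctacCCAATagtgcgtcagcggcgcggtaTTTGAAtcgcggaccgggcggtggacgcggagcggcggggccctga
Cdk1 (chr10:69352863-69353162, minus strand): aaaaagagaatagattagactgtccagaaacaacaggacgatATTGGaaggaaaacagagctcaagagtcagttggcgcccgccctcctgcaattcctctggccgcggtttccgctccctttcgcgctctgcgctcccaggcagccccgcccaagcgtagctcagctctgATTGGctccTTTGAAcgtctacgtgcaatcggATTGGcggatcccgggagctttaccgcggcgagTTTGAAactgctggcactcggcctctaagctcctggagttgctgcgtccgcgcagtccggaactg
Cdc20 (chr4:118437294-118437593, minus strand): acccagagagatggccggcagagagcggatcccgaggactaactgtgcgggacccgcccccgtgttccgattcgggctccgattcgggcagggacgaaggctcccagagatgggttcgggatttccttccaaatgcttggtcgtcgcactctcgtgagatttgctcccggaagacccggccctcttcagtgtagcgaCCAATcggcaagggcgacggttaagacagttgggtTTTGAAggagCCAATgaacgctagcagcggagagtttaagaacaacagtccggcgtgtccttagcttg
Kif11 (chr19:37376132-37376431, plus strand): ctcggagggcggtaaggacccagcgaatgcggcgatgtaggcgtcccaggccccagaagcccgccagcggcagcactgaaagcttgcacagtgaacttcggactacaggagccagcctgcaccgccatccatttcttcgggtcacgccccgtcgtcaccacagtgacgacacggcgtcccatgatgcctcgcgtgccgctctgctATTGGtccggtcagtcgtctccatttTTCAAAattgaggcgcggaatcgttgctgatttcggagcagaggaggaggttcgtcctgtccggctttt
Racgap1 (chr15:99651607-99651906, minus strand): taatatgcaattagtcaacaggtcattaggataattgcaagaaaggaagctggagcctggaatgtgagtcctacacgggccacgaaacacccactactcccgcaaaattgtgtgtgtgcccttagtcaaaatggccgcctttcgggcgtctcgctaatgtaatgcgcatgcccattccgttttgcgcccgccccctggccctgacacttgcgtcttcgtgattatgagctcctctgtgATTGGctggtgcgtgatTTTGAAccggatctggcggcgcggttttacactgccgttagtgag
CCAAT occurred in 26 of the 31 promoters (83.9%), against 37.4% of the 32851 promoters in the table. TTTGAA or TTCGAA occurred in 25 (80.6%), against 19.2% of all promoters. Both kinds of letters occurred together in 23 (74.2%), against 7.52%. In 24 of the 31 promoters (77.4%) the homology region letters began between 40 bases before and 50 bases after the start, a window chosen after the positions were seen, against 4.74% of all promoters. The 5 shown are among these 24 and carry both kinds of letters. The letters TTTGGCG or TTTCGCG, which E2F factors bind, occurred in 2 (6.45%), against 2.37%. TTCGAA reads the same on both strands, and CCAAT overlapped homology region letters in 1 promoter. Such matches describe letters and are not evidence of binding.

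Most cells carried few of the genes, and the cells that carried many usually carried most of them. None of the 35 was above 0 in 5704 cells (41.02%), and 5621 cells had 1 to 4. Among the 2580 cells with 5 or more, 513 had 5 to 9, 603 had 10 to 19 and 1464 (56.7%) had 20 to 35. The threshold lay within a fall in the number of cells, with 477 cells at 3 genes and 215 at 4 genes outside it. Inside it were 161 cells at 5 genes and 92 at 6 genes. Cells at 5 genes held 6.66 corrected counts of the 35 genes on average, and those at 4 held 5.02.

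Insm1-positive neuroblasts had the highest share of cells with 5 or more genes, followed by microglia. In Insm1-positive neuroblasts the share was 53.3%, 55.8% and 37.4% in libraries 1, 2 and 3, a mean of 48.8% ± 9.99 (SD, n = 3 libraries; 1043 cells). Insm1-negative neuroblasts, 757 cells, had 7.76%, 6.50% and 3.60%, a mean of 5.95% ± 2.13. The 2 sets of libraries did not overlap, and library 3 was lowest in both. Detected genes, which affect how many genes can be above 0, had a median of 2210 in Insm1-positive and 1657 in Insm1-negative neuroblasts. With every cell thinned to 4000 corrected counts the shares were 46.6% ± 10.1 and 5.55% ± 1.88. Thinning acted on totals already corrected for depth and left the classes as they were. It could therefore not even out detected genes or the depth before correction.

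Microglia had 32.8%, 32.5% and 24.7% of cells with 5 or more genes, a mean of 29.96% ± 4.599 (1620 cells). Oligodendrocyte precursors had 16.6%, 19.7% and 19.7%, a mean of 18.7% ± 1.75 (2757 cells). Astrocytes, the largest class with 3437 cells, had 5.30%, 6.57% and 6.45%, a mean of 6.11% ± 0.699. Every microglial and every precursor library lay above every astrocyte library. This order did not follow detected genes, whose median was 1892.5 in microglia, 2651 in precursors and 2762 in astrocytes. Pericytes had 14.7% ± 1.46 (844 cells) and endothelium 13.6% ± 4.30 (761 cells), and the libraries of these vessel classes overlapped. Of all cells with 5 or more genes, Insm1-positive neuroblasts held 20.5%, precursors 19.96%, microglia 18.5% and astrocytes 8.18%, while 16.2% lay in no class and 6.12% met 2 definitions. No test was made on these shares.

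**Figure D1:**
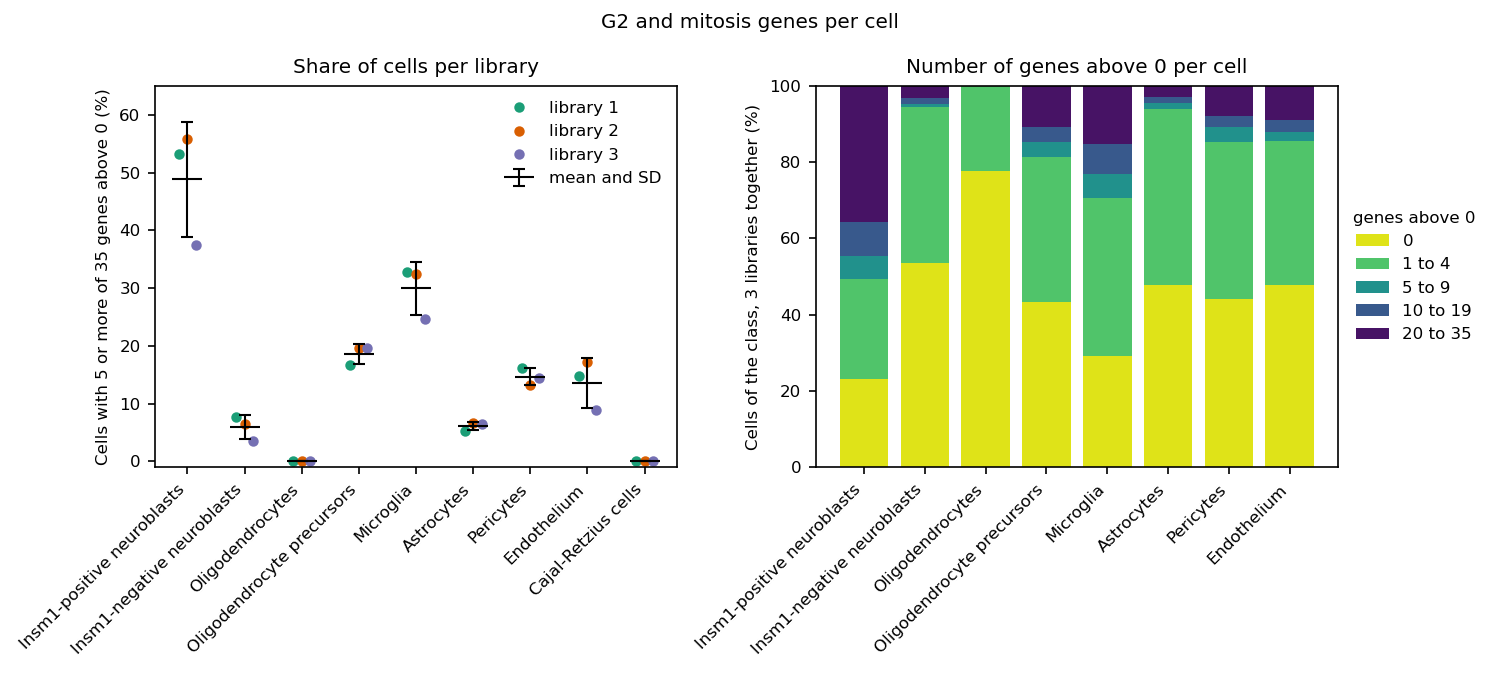
Left, the percentage of cells with 5 or more of the 35 genes above 0 per cell class, where points are libraries and bars are the mean and SD of 3 libraries. Right, the percentage of cells of each class by the number of genes above 0, with the libraries together. Insm1-positive neuroblasts averaged 48.8%, microglia 29.96%, and no oligodendrocyte or Cajal-Retzius cell reached 5 genes.

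Cells that do not divide gave the background of these counts. None of 27 oligodendrocytes had 5 or more genes, which allows a share of up to 11.1%, against 515 of 2757 precursors. With 8, 8 and 11 oligodendrocytes per library the planned test against precursors could not be fitted. In them 7 genes were seen, each in 1 cell, and the other 28 in no cell, at a median of 2719 detected genes. None of 71 cells with Reln and Trp73 above 0, the markers that defined Cajal-Retzius cells, had 5 or more genes either, which allows a share of up to 4.23%. They had a median of 3313 detected genes, more than any dividing class. Intervals and limits of this kind cover counting error only.

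Among cells with 5 or more genes the 35 differed widely in how often they were seen, from 79.5% ± 2.93 of cells for Top2a to 29.3% ± 0.814 for Anln (SD, n = 3 libraries). These values chose the cells and are a description. A rate of this kind depends on a gene's level and on how well its transcripts are captured, and no length correction could be made, so the order of rates is not an order of levels. Of the chromosome proteins, Top2a, the topoisomerase that untangles sister DNA, was followed by Mki67, which coats mitotic chromosomes, at 78.0% ± 3.43. Of the cyclins and their kinase, Cks2, a small subunit of the cyclin-dependent kinase, was seen in 73.7% ± 2.21, Cdk1 in 71.6% ± 3.83 and Ccna2 in 68.2% ± 1.77. The B-type cyclins were seen in fewer cells, Ccnb1 in 60.6% ± 3.26 and Ccnb2 in 58.3% ± 0.975, and Cdc25c, a phosphatase that activates the kinase, in 33.2% ± 2.81.

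The chromosomal passenger complex showed its subunits at unequal rates. Birc5 (survivin) and Cdca8 (borealin) were seen in 79.0% ± 1.38 and 77.8% ± 3.63 of these cells, whereas Aurkb, the kinase they bring to centromeres, was seen in 49.4% ± 4.76. Other mitotic kinases were seen in fewer cells, with Bub1, a spindle checkpoint kinase, at 43.5% ± 2.31, Plk1, the Polo-like kinase, at 43.1% ± 2.89, Aurka, the Aurora kinase of centrosomes, at 39.0% ± 4.35 and the checkpoint protein Bub1b at 38.7% ± 3.27. Pbk, another mitotic kinase, was seen in 78.6% ± 4.28. Kinetochore and centromere genes ran from Cenpf, a large kinetochore protein, at 69.5% ± 4.36, through the centromeric histone Cenpa at 67.3% ± 1.03 and the Ndc80 complex subunit Spc25 at 62.2% ± 3.76, to the motor Cenpe at 57.6% ± 2.76.

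Spindle genes spanned the same range. Tpx2, which activates Aurora A on microtubules, was at 67.4% ± 4.09, the microtubule regulator Tacc3 at 61.2% ± 2.05, Prc1, which bundles midzone microtubules, at 61.0% ± 4.43, and Nusap1, a microtubule and chromatin binder, at 60.0% ± 1.93. The motors were Kif11 (54.7% ± 6.59), Kif23 (49.3% ± 3.34) and Kif20b (44.3% ± 1.83). Hmmr, a spindle pole protein, was at 53.0% ± 1.15, and Psrc1, a microtubule regulator, at 30.4% ± 4.09. For cytokinesis, Racgap1, a GTPase regulator that partners Kif23, was at 72.0% ± 2.97, and Anln, the scaffold of the contractile ring, had the lowest rate, given above. Ube2c, the ubiquitin-conjugating enzyme of the anaphase-promoting complex, was at 68.9% ± 2.33 and its activator Cdc20 at 54.1% ± 3.20, beside Cdca3 at 69.0% ± 2.68, a protein linked to destruction of the Wee1 kinase, and Pimreg at 50.8% ± 1.43.

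The genes also differed in how closely they kept to such cells. Of the cells with a given gene above 0, a median over genes of 87.7% had 5 or more of the others. Hmmr was the most closely tied by this measure, at 96.5%, and Cdk1 the least, at 69.5%, with Cks2 at 70.6%.

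**Figure D2:**
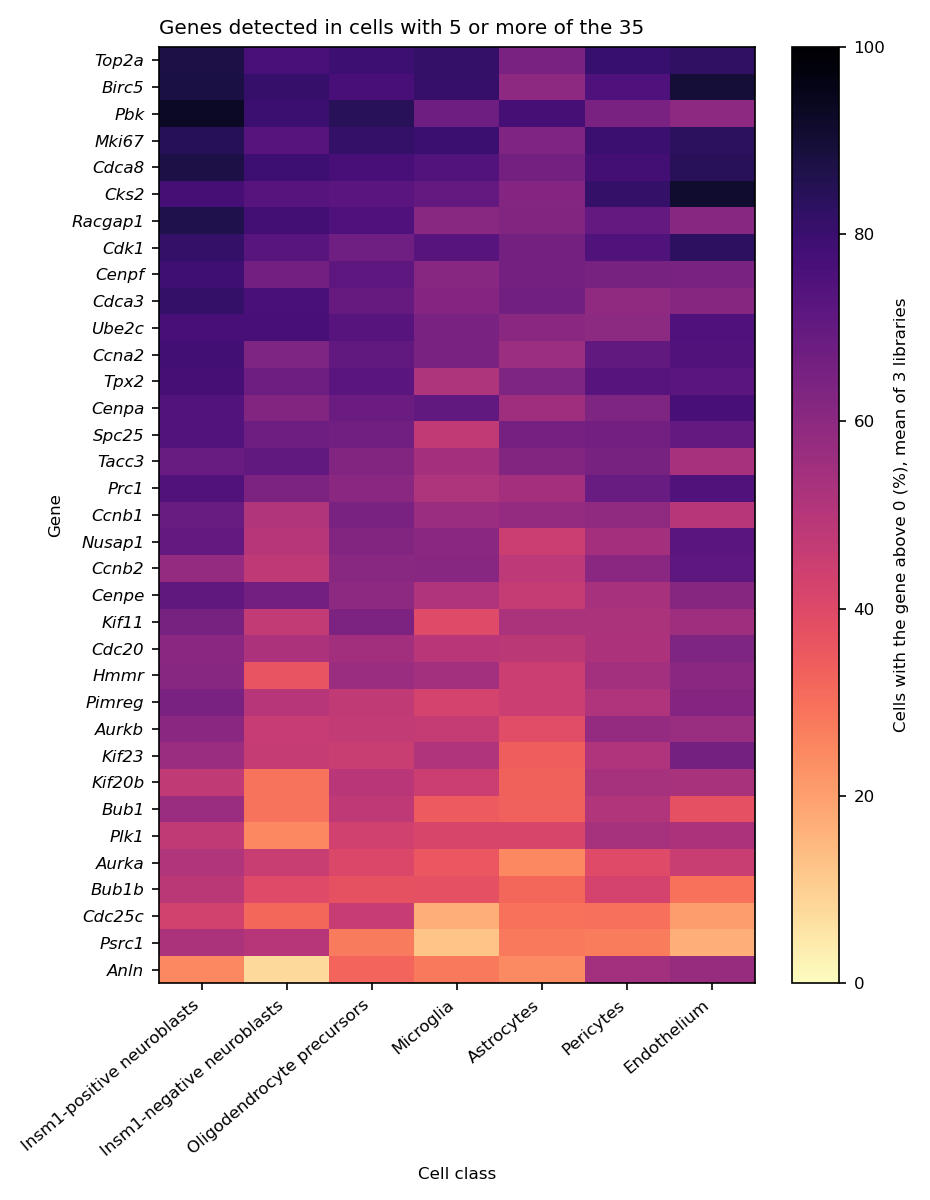
Percentage of cells with each of the 35 genes above 0 (rows, ordered by their rate over all cells with 5 or more genes) in cells with 5 or more genes, by cell class (columns), as the mean of 3 libraries. Top2a to Cdca8 are dark in most classes, Anln has its highest rates in pericytes (54.5%) and endothelium (57.1%), and Psrc1 is pale in microglia (12.3%).

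Within cells carrying 5 or more genes, the make-up differed by class, again as a description. Anln was seen in 54.5% ± 9.10 of such pericytes and 57.1% ± 6.42 of such endothelial cells, against 24.6% ± 3.41 of astrocytes to 32.2% ± 2.37 of precursors among the other large classes. Psrc1 was seen in 12.3% ± 2.69 of such microglia and 16.6% ± 8.98 of such endothelial cells, in 27.2% ± 6.32 of pericytes, 27.6% ± 1.64 of precursors and 27.98% ± 6.149 of astrocytes, and in 52.7% ± 3.93 of Insm1-positive neuroblasts. Microglia and endothelium were also low in Cdc25c, at 42.3, 30.5 and 26.5 CPM in microglia and 28.1, 20.1 and 55.8 CPM in endothelium, where precursors had 127, 118.5 and 125.5 CPM. Many other genes were lower in such microglia than in such precursors too, among them Ccnb1 (248 against 493 CPM), Cenpf (405 against 714 CPM) and Pbk (302 against 627 CPM). Microglial Mki67 was not low, at 677 ± 87.1 CPM against 679 ± 23.4 CPM in precursors, and Ccnb2 was higher (287.5 against 237 CPM). The shortfall was thus broad but not shared by every gene. Endothelial cells had 108, 130 and 148.5 CPM of Ccnb1, below the 311, 366 and 303 CPM of pericytes in every library. Ccnb1 was not alone, with means of 537 against 824 CPM for Top2a, 349 against 652 CPM for Mki67 and 186 against 363 CPM for Pbk. Birc5 (561 against 470 CPM) and Nusap1 (309 against 273 CPM) had higher means in endothelial cells. Only 16 such endothelial cells came from library 3, against 42 and 51 from libraries 1 and 2.

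Class means over all cells of a class, tested with limma on log2(mean CPM + 10), placed the 35 genes higher in Insm1-positive than in Insm1-negative neuroblasts. Such means join the share of cells that carry a gene with its level in them. Top2a had 821.5, 803 and 558 CPM in Insm1-positive neuroblasts, against 112, 48.1 and 42.9 CPM in Insm1-negative ones, a log2 fold of 3.33 ± 0.21 (SE; adjusted p = 3.05e-11). It was above 0 in 45.4% ± 10.9 of Insm1-positive and 7.28% ± 2.12 of Insm1-negative neuroblasts, and among those with 5 or more genes its level was 1476 ± 52.4 CPM in Insm1-positive and 986 ± 364 CPM in Insm1-negative cells, of which there were 41, so the shares differed more than the levels. Ccnb1 had 283, 289 and 176 CPM, against 20.1, 22.6 and 14.7 CPM, a log2 fold of 3.13 ± 0.12 (adjusted p = 1.19e-14). Anln had 26.7, 29.8 and 16.1 CPM, against 2.20, 0 and 2.39 CPM, a log2 fold of 1.55 ± 0.17 (adjusted p = 1.75e-07). For each of the 35 genes all Insm1-positive libraries lay above all Insm1-negative ones, as they did for 24.9% of the 9639 genes tested. All 35 were called higher, where 25.3% of all genes tested were, and their median log2 fold was 2.62, against 0.09 over all genes tested. With each library mean centred on its median gene the 35 were still called higher, while 11.2% of all genes were higher and 28.8% lower in place of 9.86%, and the median of all genes became -0.14. All 35 genes passed the filter of 10 CPM over class means, and 34 did so without the Insm1-positive neuroblasts. Psrc1 was the gene that passed only through them.

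Oligodendrocyte precursors exceeded astrocytes in the same genes by smaller folds. Mki67 had 115, 137 and 144 CPM in precursors, against 23.2, 31.4 and 25.5 CPM in astrocytes, a log2 fold of 1.95 ± 0.15 (adjusted p = 1.85e-10). Cdk1 had 76.3, 74.6 and 69.0 CPM, against 23.9, 32.6 and 28.6 CPM, a log2 fold of 1.13 ± 0.16 (adjusted p = 2.81e-06). Anln was lowest of the 35 at a log2 fold of 0.58 ± 0.17 (adjusted p = 0.00449). All precursor libraries lay above all astrocyte libraries for every one of the 35 genes, as they did for 49.6% of the genes tested. All 35 were called, where 39.4% of all genes tested were higher, with a median log2 fold of 1.35 against 0.15; with centring all 35 were called, 29.2% of genes were higher and 25.6% lower in place of 19.8%. In a fit of these 2 classes alone 33 were called, without Anln and Psrc1.

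Microglia, set against the same astrocytes, also exceeded them throughout, with a wider range. Mki67 had 234, 250 and 149 CPM in microglia, against the astrocyte values given above, a log2 fold of 2.56 ± 0.15 (adjusted p = 5.65e-13). The B-type cyclins differed in size, with log2 folds of 2.24 ± 0.16 for Ccnb2 (adjusted p = 1.78e-11) and 1.31 ± 0.12 for Ccnb1 (adjusted p = 5.28e-10). Psrc1 had 11.8, 6.24 and 9.58 CPM in microglia, against 3.20, 4.87 and 4.37 CPM in astrocytes, a log2 fold of 0.43 ± 0.17 (adjusted p = 0.0272). Both class means lay under the filter of 10 CPM, which Psrc1 passed only through Insm1-positive neuroblasts. All 35 were called higher, where 24.1% of genes tested were, with a median log2 fold of 1.49 against -0.27 over all genes. With centring all 35 were called, 40.8% of genes were higher and 32.1% lower in place of 50.3%, and the median of all genes was 0.10. Calls were lost for Cdc25c, Kif11 and Psrc1 without library 1, for Psrc1 without library 3, and for Cdc25c and Psrc1 in a fit of these 2 classes alone.

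Pericytes differed least from their comparison class, endothelium. Ccnb1 had 51.0, 49.8 and 45.2 CPM in pericytes, against 18.1, 22.9 and 13.1 CPM in endothelium, a log2 fold of 1.08 ± 0.12 (adjusted p = 2.34e-08). Racgap1 had 56.4, 52.0 and 43.0 CPM, against 24.4, 28.7 and 15.4 CPM, a log2 fold of 0.89 ± 0.16 (adjusted p = 3.3e-05). Nusap1 had 45.4, 33.98 and 44.3 CPM, against 36.8, 57.3 and 35.2 CPM, a log2 fold of -0.04 ± 0.19 (adjusted p = 0.886). Ccnb1 and Racgap1 libraries thus stood apart between the classes and Nusap1 libraries overlapped. Higher calls numbered 27 of 35 and lower calls 0, where 38.7% of genes tested were higher and 23% lower, with a median log2 fold of 0.54 against 0.14. The 8 not called were Cdk1, Cdc20, Aurkb, Ube2c, Aurka, Kif23, Birc5 and Nusap1. Without library 1, only 16 of the 35 were called.

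**Figure D3:**
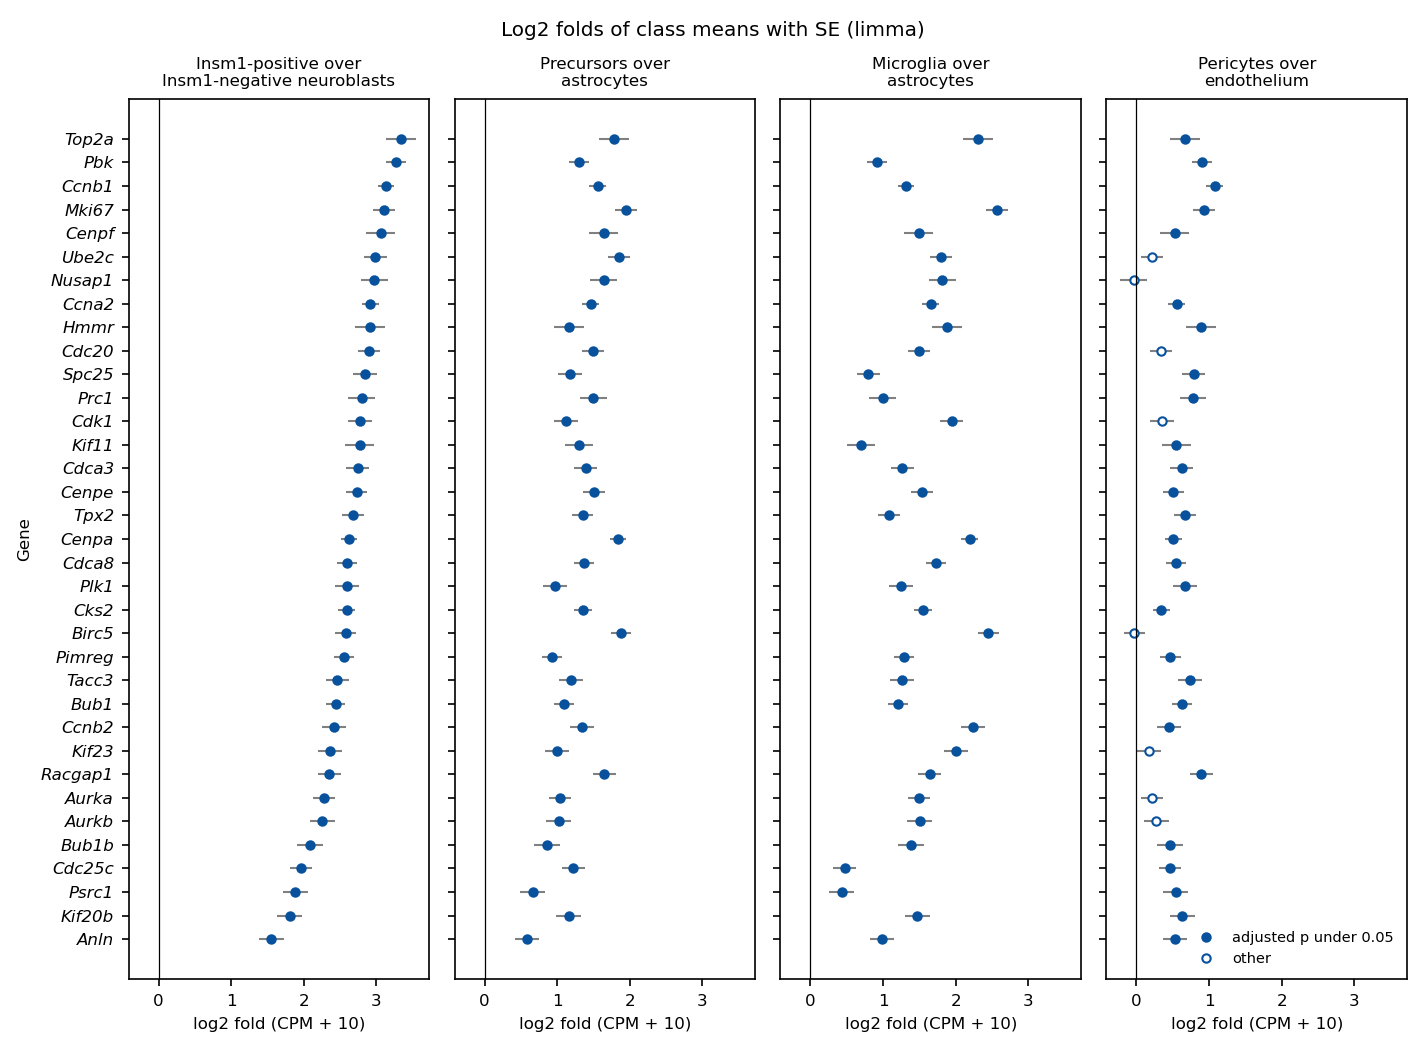
Log2 folds of class means, on the log2(CPM + 10) scale, for the 35 genes in 4 comparisons, with bars for the SE from limma; filled points had an adjusted p under 0.05. All 35 points lie right of 0 in the 3 panels at left, and Nusap1 (-0.04) lies at 0 for pericytes over endothelium.

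Some of the genes were seen in cells that carried none of the other 34. Cdk1 was seen alone in 17.1%, 18.6% and 12% of such endothelial cells in libraries 1, 2 and 3 (70 of 433 cells, 16.2%, exact 95% interval 12.8 to 19.98%). Pericytes (56 of 429 cells, 13.1%) and microglia (66 of 540 cells, 12.2%) resembled them, whereas precursors (2.77%), astrocytes (3.86%) and Insm1-positive neuroblasts (2.02%) did not. Cdk1 was thus less tied to the rest of the list in vessel cells and microglia than in the other classes, in all 3 libraries. Racgap1 was seen alone in 32 of 274 Insm1-positive neuroblasts (11.7%) and 36 of 441 Insm1-negative neuroblasts (8.16%), against 0.275% of endothelial cells and 2.45% of precursors. Cks2 was seen alone in 4.18% to 8.67% of cells of the 7 classes that entered the tests above, libraries pooled.

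Cenpf was present in most Cajal-Retzius cells, although none of these neurons carried 5 or more of the genes. It was above 0 in 25 of 29, 23 of 27 and 12 of 15 such cells in libraries 1, 2 and 3, together 60 of 71 (84.5%, exact 95% interval 74.0 to 92.0%). Their mean level was 346, 322 and 298 CPM in libraries 1, 2 and 3, against 577.5 CPM over all cells with 5 or more genes. Every other gene of the 35 was above 0 in at most 4 of the 71 cells, and 17 were in none. In the 46 cells with none of the other 34 genes Cenpf was above 0 in 38 (82.6%), against 3.01% of such precursors and 0.275% of such endothelial cells. Of the fixed markers of Cajal-Retzius cells that did not define them, Ndnf was above 0 in 71 of the 71 cells and Lhx5 in 50, against 3.59% and 0.0145% of all other cells.

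**Figure D4:**
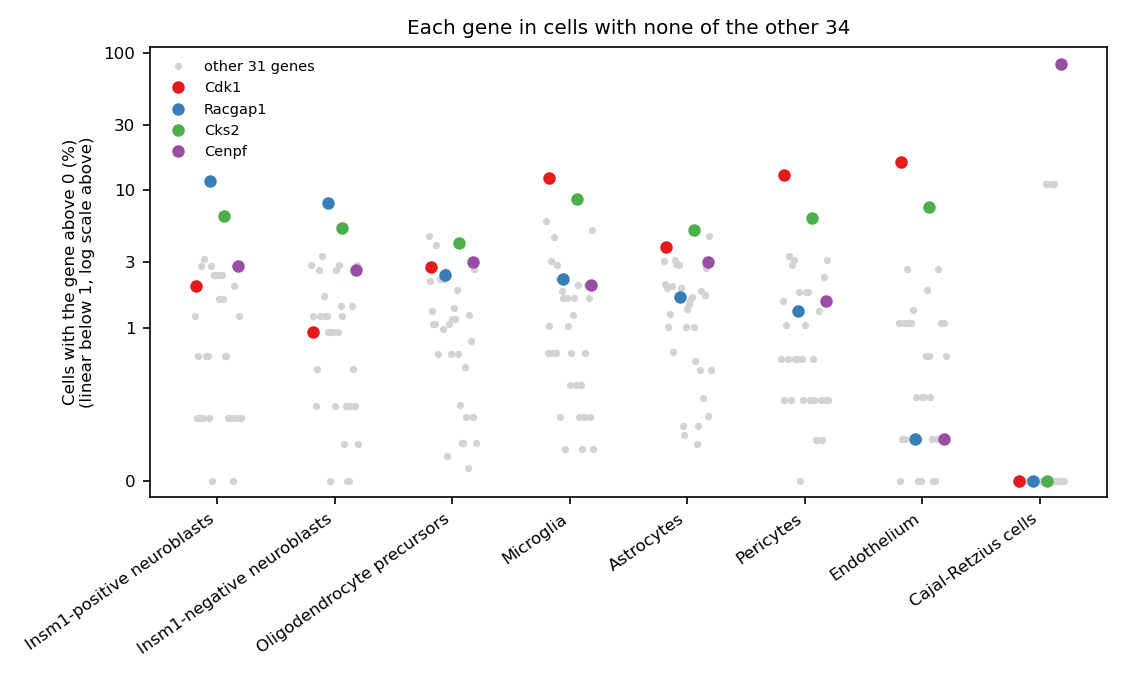
Percentage of cells with a gene above 0 among cells with none of the other 34 genes, by cell class, on an axis that is linear below 1 and logarithmic above; grey points are the 31 genes not named in the legend, and the libraries are pooled. Cenpf reaches 82.6% in Cajal-Retzius cells, Cdk1 16.2% in endothelium and Racgap1 11.7% in Insm1-positive neuroblasts. The grey points at the same height in Cajal-Retzius cells are single cells among few.

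Genes outside the list were then compared between cells with 5 or more of the 35 and cells with none, within the same class and library. Precursors, astrocytes, microglia, pericytes and Insm1-positive neuroblasts had at least 20 cells of both kinds in each library, and the fold is the mean over these 5 classes. The 35 genes were left out, and 9702 others were tested with limma. Of these, 30.3% were called higher and 12.8% lower, with a median log2 fold of 0.08. The filter of 10 CPM was taken over both kinds of cells together. Genes near 0 in cells with none could pass it through the other cells alone, and could hardly be called lower. Such genes include most of the other mitosis genes below. Tk1, Fbxo5, Cdkn3, Ncapg (100.9 CPM against 0.574 CPM) and Cdc6 (21.5 CPM against 0.892 CPM) are others. Cells with 5 or more genes had more detected genes than cells with none, a median of 2821.5 against 2409.5 over all cells. Within each of the 5 classes the gap was wider. Medians were 2793 against 1769 in Insm1-positive neuroblasts and 3252 against 2522 in precursors. They were 3090 against 2360 in pericytes, 3177 against 2660 in astrocytes and 2237 against 1739.5 in microglia. Among cells between the 25th and 75th percentile of detected genes of their class 1580 genes were called in place of 4182. When each library mean was centred on its median gene, 26.5% of calls were higher in place of 70.4%, and the median fold of all genes became -0.14. Of all genes tested 14.3% were then higher and 39.7% lower.

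Further mitosis genes rose together in cells with 5 or more genes. All 33 in the table were called, with a median log2 fold of 3.22. Spc24, which pairs with Spc25 in the kinetochore, averaged 292, 279.5 and 279 CPM in cells with 5 or more genes, against 4.22, 6.93 and 2.96 CPM in cells with none (log2 fold 4.30 ± 0.10, adjusted p = 2.48e-27). The kinetochore scaffold Knl1 had a log2 fold of 4.16 and the chromosome motor Kif22 4.03. These 3 were higher in 15 of 15 differences of class and library.

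DNA replication genes were raised in the same cells, although they act in S phase. All 35 on that list were called, with a median log2 fold of 2.04. Rrm2, a subunit of the enzyme that makes deoxynucleotides, averaged 538, 554 and 530 CPM in cells with 5 or more genes, against 18.9, 24.7 and 9.23 CPM in cells with none (log2 fold 4.34 ± 0.11). Tk1, thymidine kinase, had 3.76 and Tyms, thymidylate synthase, 2.88. Cells with 5 or more of the G2 and mitosis genes held 13.98 ± 1.02 of these 35 replication genes above 0, cells with 1 to 4 held 4.11 ± 0.0766 and cells with none 2.56 ± 0.207 (SD, n = 3 libraries). In microglia the numbers were 10.9 in cells with 5 or more, 6.33 in cells with 1 to 4 and 3.75 in cells with none, and in Insm1-positive neuroblasts 17.4, 6.78 and 3.58 in the same order.

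Condensin and cohesin genes, which fold and hold chromosomes, were all called (16 of 16), with a median log2 fold of 1.68. The condensin subunits Smc2 (3.76 ± 0.08), Ncapg (3.35 ± 0.08) and Smc4 (3.31 ± 0.07) had the largest folds. Of 33 cell cycle regulators, 31 were tested, with a median log2 fold of 1.495. Of these, 28 were called higher and 0 lower, where 30.3% of all genes tested were higher and 12.8% lower. With centring 22 were higher and 2 lower, where 14.3% of all genes tested were higher and 39.7% lower. The cyclin-dependent kinase inhibitor Cdkn2c averaged 284, 239 and 247 CPM in cells with 5 or more genes, against 18.3, 22.7 and 21.0 CPM in cells with none (log2 fold 3.23 ± 0.10). It was joined by Fbxo5, an inhibitor of the anaphase-promoting complex, at 2.99 and Cdkn3, a phosphatase of cyclin-dependent kinases, at 2.93.

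The list of the anaphase-promoting complex, which also holds its partners Ube2s and Fzr1, moved less. Of these 16 genes, 11 were called higher and 0 lower, with a median log2 fold of 0.40, where 30.3% of all genes tested were higher. With centring on the median gene 8 were higher and 3 lower, where 14.3% of all genes tested were higher and 39.7% lower. The largest fold was of Ube2s, the enzyme that extends ubiquitin chains for the complex. It had 1094, 1133 and 1033 CPM in cells with 5 or more genes, against 279, 304 and 281 CPM in cells with none (log2 fold 1.83 ± 0.05). The activator Fzr1 (Cdh1) had 1.13 ± 0.07 and the subunit Anapc15 0.93 ± 0.12. In cells between the 25th and 75th percentile of detected genes of each class, 5 of the 16 were called and Anapc15 was not.

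**Figure D5:**
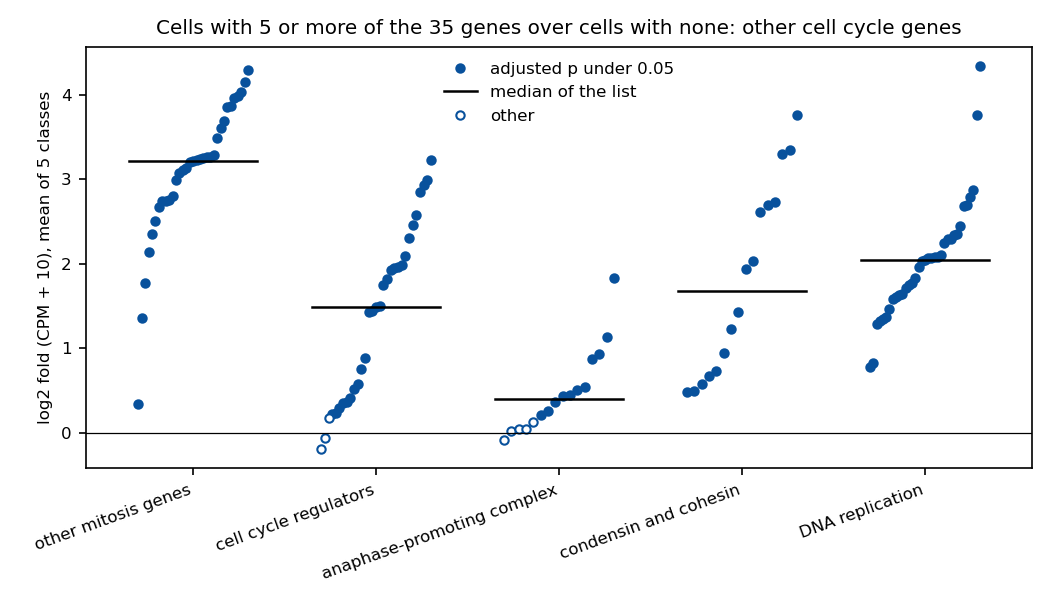
Log2 folds, on the log2(CPM + 10) scale and averaged over 5 cell classes, of cells with 5 or more of the 35 genes over cells with none, for genes of 5 other lists; filled points had an adjusted p under 0.05 with limma and lines are list medians. Medians run from 3.22 for other mitosis genes to 0.40 for the anaphase-promoting complex.

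Outside all lists, 740 genes were higher and 146 lower in all 15 differences of class and library among those called. The largest fold was of Pclaf, a PCNA-binding protein of replicating cells, which averaged 767, 815.5 and 747 CPM in cells with 5 or more genes, against 7.76, 9.49 and 3.22 CPM in cells with none (log2 fold 5.43 ± 0.10). Replication-dependent histone genes followed, Hist1h2ap at 4.36, Hist1h1b at 4.20 and Hist1h2ae at 3.92; these are near-identical multicopy genes, so reads may be split between copies. Next came Lockd, a noncoding RNA beside Cdkn1b, at 3.86, Shcbp1 at 3.74, the cohesin acetyltransferase Esco2 at 3.73 and the kinetochore protein Knstrn at 3.64.

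The genes lower in cells with 5 or more of the 35 had smaller folds. Tcp11l2 had 16.4, 9.96 and 17.5 CPM in cells with 5 or more genes, against 55.9, 62.9 and 56.5 CPM in cells with none (log2 fold -1.49 ± 0.13). Kdm5b, a histone demethylase, had a log2 fold of -1.06 and Rsrp1 -1.05. The glycolytic enzyme Aldoa (-0.97), Ypel3 (-0.96), the lysosomal protease Ctsf (-0.96), the selenium carrier Selenop (-0.88) and the cholesterol exporter Abca1 (-0.87) completed the 8 lowest.

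Some markers of a cell's own class were lower in cells with 5 or more genes, in 4 of the 5 classes. In astrocytes 4 of 7 fixed markers were called lower, where 2.15% of genes were lower. Gfap, a filament protein found in some astrocytes, had 291, 87.0 and 121 CPM in astrocytes with 5 or more genes, against 624.5, 718.5 and 565 CPM in those with none (log2 fold -2.04 ± 0.27, adjusted p = 4.75e-07). Ntsr2 (-0.998), Slc7a10 (-0.99) and Aldoc (-0.98) were lower as well, whereas the glutamate transporters Slc1a3 (-0.15, adjusted p = 0.823) and Slc1a2 (-0.26, adjusted p = 0.708) did not pass. All 6 microglial markers summed to 271 ± 164.5 CPM (range 126 to 449) in astrocytes with 5 or more genes, against 101 ± 34.3 CPM (range 68.1 to 137) in those with none; none was at 0, and their part in these results was not tested.

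In precursors 3 of 7 markers were lower (3.62% of genes were lower), C1ql1 by a log2 fold of -1.04, Matn4 by -0.76 and Neu4 by -0.63. In Insm1-positive neuroblasts 3 of 7 were lower (8.39% of genes were lower): Dlx6os1 at -1.08, Dcx, a microtubule protein of migrating neurons, at -1.06, and Gad2, an enzyme that makes the transmitter GABA, at -0.99. In pericytes 3 of 6 were lower (9.88% of genes were lower), Atp13a5 at -0.71, Pdgfrb at -0.56 and Abcc9 at -0.46. In microglia 0 of 6 passed in either direction, where 12.2% of genes did, with a median log2 fold of -0.17 for the 6. With centring all 13 of these marker calls were kept, but more of all genes were lower, 6.62% in astrocytes, 9.12% in precursors, 21.8% in Insm1-positive neuroblasts and 21% in pericytes. With 1 CPM added in place of 10 CPM 1 call was kept, that of Gfap, although the folds of the 13 hardly moved, with a median of -1.01 in place of -0.995. In cells of similar numbers of detected genes 2 calls were kept, those of Gfap and Neu4, and the 13 folds ran from -2.51 to -0.35, all below 0, with a median of -0.89.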

How the data were processed

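Single cells of mouse prefrontal cortex were profiled with 10x Genomics droplets, 3 libraries of 1 group; the labels' protocols mention flash freezing and Trizol and do not describe how cells were isolated. The submitters' processing notes name the tools Seurat, Cell Ranger and CASAVA 1.8 and the build mm10. The deposited values are natural log values, ln(1 + a whole number): all 34958786 values above 0 became whole to a relative 1e-06 after exp(value) - 1. Those corrected counts summed to 4422 to 8135 per cell while detected genes ran from 121 to 4213, so depth had been corrected by the authors in a way not given in the sources used here, and no count model was used. All columns were mapped to a library by the sample title that the submitters gave for each cell barcode.

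Doublets were called per library with Scrublet in scanpy 1.11.5 (Python 3.11.15) and removed. Scrublet was run on the corrected counts, so differences in depth before correction could not inform these calls. Each cell was scaled to a common total (CPM), cells were averaged by class and library, and limma 3.58.1 (R 4.3.3, trend on) was run on log2(mean + 10 CPM) with a term per library, where genes averaged 10 CPM or more and every library held 20 or more cells of a class. Adding 10 CPM understates the fold of weakly expressed genes. The class fit held 7 classes with 12 residual degrees of freedom, and the fit of cells with 5 or more genes against cells with none held 5 classes with 18. The design takes the library as a block because the classes compared come from the same libraries. Adjusted p-values are Benjamini-Hochberg over all genes tested, two-sided, at 0.05. Single shares have exact (Clopper-Pearson) 95% intervals, and a count of 0 allows 3 counts of the total. Of 5 planned class comparisons 4 were fitted. The code was tested on simulated data.

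The 35 genes, the other lists, the markers and the classes were chosen with earlier results of these data known. One marker's own result is not reported here. All 35 genes could be named; of each other list the 3 largest folds past the threshold; and outside the lists the 8 highest and 8 lowest folds with 1 sign in every class and library. Cdk1, Racgap1, Cks2 and Cenpf were singled out in cells without the other genes after their values were seen. Alternatives were another added CPM, another filter, centring on the median gene, doublets kept, no block and the compared classes alone. Further ones were other thresholds for a gene or a cell, thinning and cells in 2 classes kept. The last were cells between the 25th and 75th percentile of detected genes, and each library left out. Array weights of limma were added after seeing the data.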

Additional observations from a re-analysis of the deposited data

Results flagged for a closer look

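Some markers of a cell's own class moved 1 way in all 3 libraries of that class and the other way in all 3 libraries of another class, when cells with 5 or more of the 35 genes were set against cells with none. These differences between classes were not tested, values are log2 folds, and the other class often expresses the gene weakly. Gfap was at -2.04 in astrocytes, against 0.54 in pericytes, and Ntsr2 at -0.998 in astrocytes, against 0.18 in precursors. In precursors Cspg4 was at -0.21, against 0.34 in astrocytes. Olig2 was at -0.26 in precursors, against 1.16 in Insm1-positive neuroblasts, 0.42 in pericytes and 0.15 in astrocytes. Cacng4 was at 0.13 in precursors, against -0.80 in Insm1-positive neuroblasts and -0.54 in microglia.

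In Insm1-positive neuroblasts Dlx5 was at -0.46, against 0.11 in precursors, and Gad2 at -0.99, against 0.42 in astrocytes. The microglial genes C1qa and C1qb were at -0.18 and -0.24 in microglia, against 0.93 and 1.21 in astrocytes. C1qa was also at 0.28 in precursors and 0.89 in pericytes. In pericytes Abcc9 was at -0.46, against 0.15 in Insm1-positive neuroblasts and 0.26 in astrocytes, and Higd1b at -0.10, against 0.43 in precursors and 0.65 in astrocytes.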

How the results depend on the processing

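The number of the 35 genes called higher stayed within 1.5 times under the alternatives run, except in pericytes over endothelium, where leaving out a library gave 16 to 28 of 35. With no replicate block the called numbers were 35, 35, 35 and 25 for Insm1-positive over Insm1-negative neuroblasts, precursors over astrocytes, microglia over astrocytes and pericytes over endothelium, so the block changed no count by over 1.5 times. Leaving out a library called 2055 to 3093 of all genes for Insm1-positive over Insm1-negative neuroblasts (3388 with all libraries). For cells with 5 or more genes over cells with none it called 850 to 940 in precursors, 761 to 876 in microglia and 846 to 912 in astrocytes, against 1343, 1180 and 1347; fewer samples entered these fits. In the lists it gave 0 or 1 lower call for cell cycle regulators and for the anaphase-promoting complex.

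In cells between the 25th and 75th percentile of detected genes, the same contrast called 579 genes in Insm1-positive neuroblasts, 290 in precursors, 347 in microglia, 1562 in pericytes, 482 in astrocytes and 1580 on average, against 3387, 1343, 1180, 2447, 1347 and 4182; 5 genes of the anaphase-promoting complex were called higher. Fewer cells entered these fits, among them 8, 7 and 11 pericytes and 17, 27 and 19 astrocytes with 5 or more genes in libraries 1, 2 and 3. Array weights called 3118 genes in precursors, 1499 in pericytes and 2050 in astrocytes. Lower calls among cell cycle regulators numbered 2 with centring, 1 with doublets kept and 1 with array weights, and in the anaphase-promoting complex 3 with centring. With centring 39.7% of all genes tested were lower on average over the classes.

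Leaving out a library gave log2 folds of -0.16 to 0.11 for Birc5 and -0.19 to 0.25 for Nusap1 in pericytes over endothelium, reversed without library 2. In cells with 5 or more genes over cells with none, centring reversed Cacng4 in precursors (-0.031), Tmem119 (-0.11) and Cx3cr1 (-0.003) in microglia and Notch3 in pericytes (-0.10), and leaving out a library gave -0.03 to 0.22 for Tmem119, reversed without library 1. Keeping cells between the 25th and 75th percentile of detected genes reversed Cd24a in Insm1-positive neuroblasts (0.003), Notch3 (-0.21) and Higd1b (0.12) in pericytes. None of these passed the threshold either way.

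The share of cells moved with its definition. At 3 or more genes it was 23.4% of all cells, 23.4% of precursors, 38.8% of microglia, 18.9% of pericytes, 10.6% of astrocytes and 8.30% of Insm1-negative neuroblasts. At 8 or more it was 16.3% of precursors, 12.2% of pericytes and 4.62% of astrocytes. With a gene counted at 2 or more corrected counts it was 13.6% of all cells, 13.5% of precursors, 22.1% of microglia, 9.88% of pericytes and 3.68% of astrocytes. Thinning gave 12.9% of pericytes and 4.89% of astrocytes, and keeping cells in 2 classes gave 7.33% of astrocytes. The alternatives for oligodendrocytes over precursors could not be fitted. Unknown depth before correction limits what a value of 0 means, most for genes seen in few cells, such as Anln and Psrc1.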

Other observations

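Of the cells with 5 or more of the 35 genes, 418 lay in no class, and their share of such unclassed cells was 25.2%, 18.3% and 13.7% in libraries 1, 2 and 3. Among these 418 cells 30.4% had 3 or more neuroblast markers, 25.4% had 3 or more astrocyte markers, 11% had 3 or more precursor markers and 9.57% had 3 or more microglial markers. Erythroid markers, which include haemoglobin genes, summed to 10920 CPM in unclassed cells with 5 or more genes, against 80100 CPM in unclassed cells with none.

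Cells with 5 or more of the 35 genes held 14.15 ± 0.847 of the 33 other mitosis genes above 0 (SD, n = 3 libraries), against 1.17 ± 0.0639 in cells with none. Cells with 1 to 4 held 1.49 ± 0.0479, and by class 1.31 in Insm1-positive neuroblasts, against 0.768 in those with none, and 1.49 in microglia, against 0.962. By class the number in cells with 5 or more genes ran from 11.95 in microglia to 17.0 in Insm1-positive neuroblasts.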
